A study of Mus musculus with 55 samples.

Results

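The 9 genes described here carry out the work of the red cell: Hba-a1, Hba-a2, Hbb-bs and Hbb-bt encode the adult globin chains, Car1 and Car2 the carbonic anhydrases, and Epor, Slc4a1 and Ermap proteins of the cell surface. They were taken by gene symbol from the 55421 genes of a table of read counts. The table holds 46 bulk RNA-seq libraries of 6 populations sorted from mouse bone marrow. LT-HSC and ST-HSC are long-term and short-term haematopoietic stem cells, MEP are the progenitors of megakaryocytes and red cells, GMP those of granulocytes and macrophages, and CMP and CLP the common myeloid and common lymphoid progenitors. Each population has 4 WT and 4 Tet2-/- libraries, but both stem cell populations have 3 from WT mice. A second table holds 9 LT-HSC libraries, 3 for each of the labels WT, Sting-/- and Tet2;Sting DKO.

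The mice were on a C57BL/6 background. Tet2-/- stands for a floxed Tet2 allele removed by Mx1-Cre, a transgene driven by an interferon-responsive promoter and switched on with poly(I:C), so that the deletion is not restricted to one blood lineage. Sting was deleted in the germ line. The mice were kept for several months after the induction. Surface markers defined the gates: LT-HSC and ST-HSC were Lin-cKit+Sca1+CD48- cells with and without CD150, CMP, GMP and MEP were Lin-cKit+Sca1- cells split by CD34 and CD16/32, and CLP were CD127+ cells with less Sca1. The labels give 200 sorted cells per library, and the study's methods a higher number. The RNA was amplified with a SMART-seq kit for full-length mRNA.

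Red cells arise from MEP through a series of erythroblasts, which build haemoglobin from α- and β-globin chains and haem. The globin genes lie in an α and a β cluster, are switched on by GATA1 and KLF1 with the help of distant enhancers, and reach their highest levels in erythroblasts, which these gates are not set to collect. Carbonic anhydrases turn carbon dioxide into bicarbonate, the anion exchanger Slc4a1 (band 3) carries bicarbonate across the red cell membrane, Epor is the receptor for erythropoietin, and Ermap is an erythroid membrane protein of the immunoglobulin superfamily. In bulk libraries, fewer cells of a type and less RNA per cell cannot be told apart.

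The libraries held 50458473 to 102148079 counts in the first set and 26776517 to 78682096 in the second. Values are CPM, counts scaled to the size of the library by TMM. Marker genes followed the gates of GMP and the stem cells, and red cell membrane genes followed that of MEP. Summed megakaryocyte markers did not: they were 22.2 to 191 CPM in WT MEP against 558 to 852 CPM in WT CMP. In Tet2-/- libraries they were 23.3 to 92.7 CPM in MEP against 528 to 1413 CPM in CMP. Summed neutrophil and GMP markers were 30483 to 44527 CPM in GMP libraries against at most 81.2 CPM in MEP, summed HSC markers were 255 to 966 CPM in LT-HSC and ST-HSC against at most 44.9 CPM in MEP, and summed red cell membrane genes were 2210 to 2873 CPM in MEP against at most 1483 CPM in CMP. The CLP libraries stood apart: summed B cell markers were 230731 to 486614 CPM in WT CLP and 749 to 282875 CPM in Tet2-/- CLP, against at most 237 CPM in the other populations. They also differed among themselves, with summed mast cell and basophil markers from 17.6 to 2938 CPM in WT and summed neutrophil and GMP markers from 2.60 to 12097 CPM in Tet2-/-. Mean counts of the whole Tet2 gene were lower in Tet2-/- than in WT in CMP, MEP and ST-HSC and higher in CLP, GMP and LT-HSC, which checks nothing about the deleted part of the gene. No label says that libraries of a group came from separate mice. The study's figure legends count the RNA-seq replicates as mice, and describe each LT-HSC point of its principal component plot as an individual mouse. The p-values measure the spread between these libraries only.

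On GRCm38, with gene models of GENCODE vM21, the α-globin genes lie on the plus strand at chr11:32283511-32284465 (Hba-a1) and chr11:32296489-32297298 (Hba-a2). The β-globin genes lie on the minus strand at chr7:103826534-103828096 (Hbb-bs) and chr7:103812524-103813996 (Hbb-bt). Car1 (chr3:14766216-14808368, minus) and Car2 (chr3:14886273-14900770, plus) are neighbours. Epor lies at chr9:21958897-21963506, Slc4a1 at chr11:102348824-102366203 and Ermap at chr4:119175457-119190011, all on the minus strand. All 9 are protein-coding genes, and the counts are of whole genes. Hba-a1 and Hba-a2 share 439 runs of 50 bases between their transcripts, which is 67.5% of the runs of Hba-a1 and 86.9% of those of Hba-a2. Hbb-bs and Hbb-bt share 381, which is 57.5% and 58.3%. The split of reads within each pair is therefore uncertain, and summed values are given beside the single genes.

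The promoters of an α-globin gene, a β-globin gene, Epor and Ermap are shown. The α-globin and β-globin genes differed in their order over the populations. Genotype calls of the α-globin genes fell in MEP, and those of Epor and Ermap in CMP. RefSeq (GRCm38.p6) windows were found for 6 of the 9 members, all but Car1, Car2 and Slc4a1. The stretches printed run 5′ to 3′ on the strand of the gene and stop before the outermost annotated transcript start. Capitals mark 3 motifs on either strand, where they overlap merged: the GATA motif (GATA after A or T and before A or G), the KLF motif CCNCNCCC and the CCAAT box. The stretches are Hba-a2 at chr11:32296242-32296488 (plus), Hbb-bt at chr7:103813997-103814173 (minus), Epor at chr9:21963577-21963826 (minus) and Ermap at chr4:119190012-119190245 (minus).
Hba-a2: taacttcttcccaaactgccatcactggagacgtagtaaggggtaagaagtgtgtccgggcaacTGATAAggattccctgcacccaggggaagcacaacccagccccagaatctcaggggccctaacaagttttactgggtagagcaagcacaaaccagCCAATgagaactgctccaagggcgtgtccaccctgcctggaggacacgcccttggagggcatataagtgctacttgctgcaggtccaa
Hbb-bt: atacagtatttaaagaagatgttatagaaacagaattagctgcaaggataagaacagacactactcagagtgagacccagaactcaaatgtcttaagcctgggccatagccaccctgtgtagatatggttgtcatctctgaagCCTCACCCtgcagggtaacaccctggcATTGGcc
Epor: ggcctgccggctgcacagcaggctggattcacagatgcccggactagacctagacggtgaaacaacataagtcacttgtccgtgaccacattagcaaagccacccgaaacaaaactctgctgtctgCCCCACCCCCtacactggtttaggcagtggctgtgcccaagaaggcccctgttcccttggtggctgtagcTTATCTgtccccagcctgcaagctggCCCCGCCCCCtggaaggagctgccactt
Ermap: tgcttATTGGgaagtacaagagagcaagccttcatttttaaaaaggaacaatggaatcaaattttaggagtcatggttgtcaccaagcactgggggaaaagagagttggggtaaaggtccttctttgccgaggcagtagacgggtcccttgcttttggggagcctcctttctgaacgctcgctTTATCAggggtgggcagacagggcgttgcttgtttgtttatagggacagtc
In the full windows of 250 bases, the GATA motif was found once in 5 of the 6 members and was absent from that of Hbb-bt, and 26.5% of all 32851 windows hold it. The KLF motif was found once each in Hbb-bs and Hbb-bt and in 4 overlapping matches in Epor, against 45.9% of all windows. The CCAAT box was found in all members but Epor, with 3 in Hbb-bt, against 33.8% of all windows. Hba-a1 and Hba-a2 share an identical run of 247 bases here, which is the stretch printed for Hba-a2. In Hba-a1 only 89 bases of the window (chr11:32283422-32283510) lie before the outermost annotated start. They hold the GATA motif and not the CCAAT box. A match is a description of the letters and not a site of binding.

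The α-globin genes were highest in MEP. Hba-a1 measured 82.8, 111, 250 and 91.8 CPM in the WT MEP libraries and 57.9, 12.4, 1.88 and 17.2 CPM in WT CMP. All 4 WT MEP libraries lay above all WT CMP libraries, and the other WT populations overlapped with CMP: the highest library was 15.9 CPM in ST-HSC, 14.9 CPM in GMP, 6.51 CPM in LT-HSC and 2.82 CPM in CLP. In Tet2-/- libraries Hba-a1 was 59.1, 43.1, 47.5 and 55.4 CPM in MEP and 35.7, 35.7, 35.3 and 44.7 CPM in CMP, which overlapped. Hba-a2 followed the same order, with 39.7, 47.8, 104 and 40.8 CPM in WT MEP and 27.4, 8.19, 1.02 and 7.63 CPM in WT CMP. In Tet2-/- it was 21.8, 17.3, 19.6 and 24.7 CPM in MEP and 16.1, 11.5, 15.1 and 24.1 CPM in CMP. WT MEP replicate 4 was the highest library for both genes, and the other three WT MEP libraries lay close together.

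**Figure D1:**
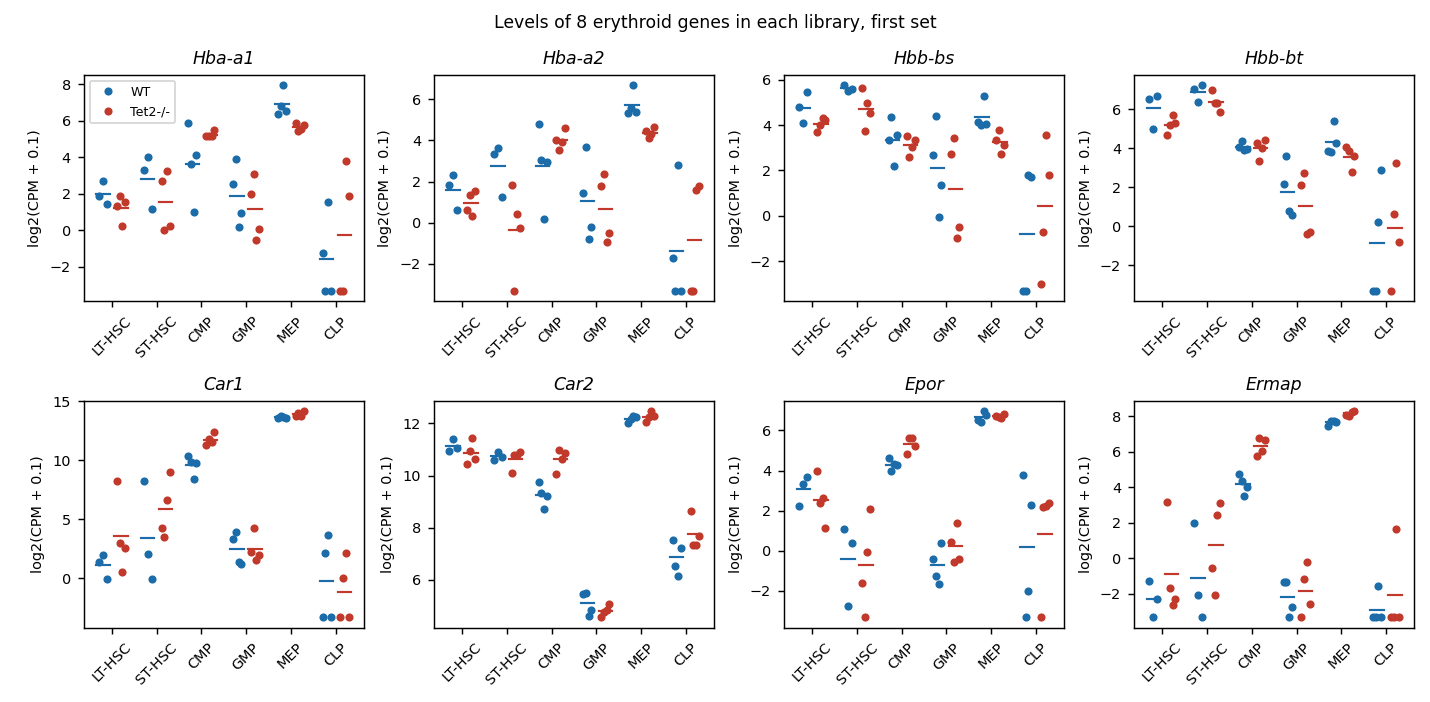
Level of 8 member genes in each library, as log2(CPM + 0.1), in the 6 populations, with WT in blue, Tet2-/- in red and bars at the mean of the log2 values. Hba-a1, Hba-a2, Car1, Car2, Epor and Ermap have their highest points in MEP, while Hbb-bs and Hbb-bt have theirs in ST-HSC and LT-HSC.

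The β-globin genes had another order. Hbb-bt measured 130, 81.8 and 151 CPM in WT ST-HSC, 91.5, 31.8 and 102 CPM in WT LT-HSC, and 14.5, 13.6, 41.3 and 19.2 CPM in WT MEP. The LT-HSC and ST-HSC libraries overlapped, LT-HSC and MEP overlapped in 1 library, and ST-HSC lay wholly above MEP. In Tet2-/- libraries Hbb-bt was 126, 80.0, 79.1 and 58.3 CPM in ST-HSC, 25.2, 36.0, 51.2 and 38.7 CPM in LT-HSC, and 16.3, 14.5, 6.66 and 12 CPM in MEP, with no overlap between these 3 populations. Hbb-bs was 54.6, 45.1 and 48.8 CPM in WT ST-HSC, 27.9, 16.7 and 43.3 CPM in WT LT-HSC, and 17.4, 16.1, 38.6 and 16.5 CPM in WT MEP. For Hbb-bs, WT ST-HSC lay above all other WT libraries and LT-HSC overlapped with MEP. The WT means of Hbb-bs were lowest in GMP (7.63 CPM) and CLP (1.63 CPM).

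Summed over each pair, α-globin was 192 ± 109 CPM and β-globin 44.3 ± 23.8 CPM in WT MEP (SD, n = 4), and 72.1 ± 10.1 and 22.1 ± 6.75 CPM in Tet2-/- MEP (SD, n = 4). α-globin exceeded β-globin in 4 of 4 MEP libraries of each genotype. In the stem cells the order was the other way round: 7.50 ± 3.72 CPM of α-globin and 104 ± 50.2 CPM of β-globin in WT LT-HSC (SD, n = 3), and 17.5 ± 12.1 and 170 ± 38.5 CPM in WT ST-HSC (SD, n = 3). β-globin exceeded α-globin in every LT-HSC and ST-HSC library of the first set. CMP lay between, with α-globin above β-globin in 1 of 4 WT and 4 of 4 Tet2-/- libraries. All globin levels were low in absolute terms: the 4 genes took 0 to 0.0426% of a library's counts, with a median of 0.00696%. Per kilobase of gene model, WT MEP had 165 CPM of Hba-a1 against 31.5 CPM of Hbb-bt, and WT ST-HSC had 11.5 CPM of Hba-a1 against 172 CPM of Hbb-bt. The embryonic globin Hba-x was at 0 counts in all 46 libraries, and Hbb-bh1 reached at most 0.573 CPM.

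**Figure D2:**
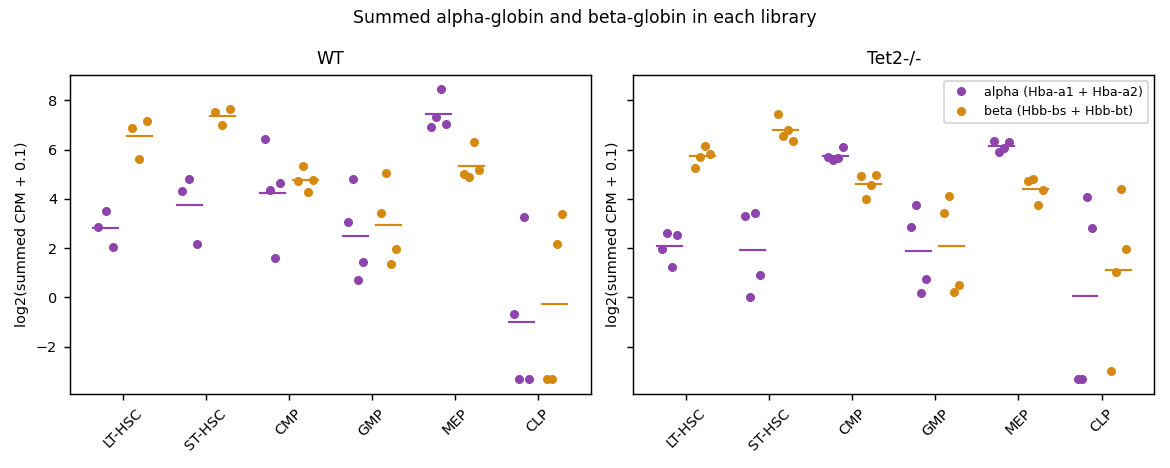
Summed α-globin (Hba-a1 and Hba-a2) and β-globin (Hbb-bs and Hbb-bt) in each library, as log2(summed CPM + 0.1), for WT (left) and Tet2-/- (right). α-globin lies above β-globin in all MEP libraries, and β-globin lies above α-globin in all LT-HSC and ST-HSC libraries.

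The carbonic anhydrases were the most abundant members. Car1 measured 12177, 14077, 12880 and 12613 CPM in WT MEP, 1331, 931, 351 and 894 CPM in WT CMP and at most 15.1 CPM in WT GMP, with no overlap between MEP, CMP and GMP. In the stem cells most libraries were low but not all. WT ST-HSC libraries had 307, 4.01 and 0.836 CPM of Car1, and Tet2-/- LT-HSC libraries had 304, 7.68, 1.35 and 5.92 CPM. Single libraries thus set the group means of 104 CPM in WT ST-HSC and 79.6 CPM in Tet2-/- LT-HSC. Car2 was spread over more populations: it had a mean of 4612 CPM in WT MEP, 2260 CPM in LT-HSC, 1709 CPM in ST-HSC, 629 CPM in CMP, 125 CPM in CLP and 35.3 CPM in GMP. No neighbours in this WT order of Car2 overlapped. Per kilobase of gene model, Car1 was at 10366 CPM and Car2 at 1904 CPM in WT MEP.

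Epor and Ermap followed the order MEP, CMP and the rest. Epor measured 91.2, 84.7, 125 and 109 CPM in WT MEP and 24.6, 15.6, 19.9 and 19.4 CPM in WT CMP. It was 4.53, 9.98 and 12.8 CPM in WT LT-HSC and at most 2.04 CPM in WT ST-HSC and 1.22 CPM in WT GMP. MEP, CMP and LT-HSC did not overlap for Epor in either genotype. Ermap measured 177, 216, 209 and 205 CPM in WT MEP, 26.6, 20.6, 11.3 and 16.3 CPM in WT CMP, and at most 0.295 CPM in WT GMP. WT ST-HSC replicate 2 and Tet2-/- LT-HSC replicate 2, which had the most Car1 of their groups, also had the most Ermap, at 3.85 and 8.82 CPM. Slc4a1 was at 0 counts in 45 of the 46 libraries, where 3 counts would be 0.0273 to 0.0889 CPM. The exception was Tet2-/- GMP replicate 3, with 60 counts (0.966 CPM), so that 8 of the 9 members had levels to compare. Alas2, the erythroid enzyme of the first step of haem synthesis, reached at most 1.72 CPM in CMP and MEP libraries.

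The steps along the erythroid path were tested with edgeR in one model of all 12 groups, with calls at a Benjamini-Hochberg adjusted p under 0.05 over all genes and at least 2-fold. Between WT MEP and WT CMP, 6 of the 8 members tested had no overlap between the groups and were higher in MEP, where 11.4% of all genes did the same. Only Car2 was called (log2 fold change 2.88, SE 0.29, adjusted p = 3.5e-09), where 0.756% of all genes were called higher. With only the libraries of these groups in the fit, Car1 (3.87), Car2 (2.86), Epor (2.35) and Ermap (3.42) were called. In Tet2-/-, Car2 was again the member called between MEP and CMP (1.59), with 0.21% of all genes called higher, and the fit of those groups alone called Car1 (2.12), Car2 (1.58), Epor (1.36) and Ermap (1.79).

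Between WT MEP and WT LT-HSC, 4 members rose by this test, with 3.79% of all genes called higher: Hba-a1 (4.97, adjusted p = 0.0491), Car1 (12.38), Car2 (1.03, adjusted p = 0.0199) and Ermap (10.28). Hbb-bt had a log2 difference of -1.77 (adjusted p = 0.340), and it was called lower in MEP with only the libraries of these groups in the fit (-1.80, adjusted p = 0.0314). In Tet2-/-, Hba-a1 (4.38), Car1 (7.63), Car2 (1.36), Epor (3.87) and Ermap (6.94) were called higher in MEP than in LT-HSC, with 4.78% of all genes called. The WT call of Hba-a1 was lost in 33 of the 46 fits that left out a library (adjusted p up to 0.164) and that of Car2 in 9 (up to 0.0894). The WT count fell to 2 without Tet2-/- LT-HSC replicate 4, WT LT-HSC replicate 2, WT MEP replicate 4, WT LT-HSC replicate 5, Tet2-/- MEP replicate 4 or WT CLP replicate 2. The fit of the Tet2-/- MEP and LT-HSC libraries alone also called Hba-a2 higher (3.38, adjusted p = 0.00059) and Hbb-bt lower (-1.61, adjusted p = 0.00846) in MEP. The Tet2-/- count fell to 3 without LT-HSC replicate 3, 4 or 5 or MEP replicate 4 or 5.

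CMP stood above GMP for the same surface and enzyme genes. Car1 (6.88), Car2 (4.15), Epor (4.98) and Ermap (6.66) were called higher in WT CMP than in WT GMP, with 1.13% of all genes called higher. In Tet2-/- the same 4 genes were called, with log2 values of 8.88, 5.86, 5.01 and 8.02 and with 1.54% of all genes called. No globin gene was called in either genotype in this fit. Hba-a1, Hba-a2 and Hbb-bt in Tet2-/- CMP lay above GMP without overlap, as 13.1% of all genes did, and so did Hbb-bt in WT CMP, as 10.9% of all genes did. With only the libraries of the groups compared in the fit, Hba-a1 (3.40, adjusted p = 0.00669), Hba-a2 (2.79, adjusted p = 0.0171) and Hbb-bt (2.40, adjusted p = 0.0289) were called higher in Tet2-/- CMP and Hbb-bt (1.80, adjusted p = 0.0482) in WT CMP, beside the same 4 genes. The WT count fell to 1 without WT CMP replicate 2 or any one of the WT GMP libraries and to 2 without WT CMP replicate 3, while the Tet2-/- count was 3 or 4 over all libraries left out.

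Genes of haem synthesis and iron uptake, a list of 12 genes chosen as companions of the members, were compared over the same steps. Between WT CMP and WT MEP 8 of 12 were called higher in MEP, where 0.756% of all genes were, with Cpox (coproporphyrinogen oxidase) at 2.55, Tfrc (the transferrin receptor) at 1.74 and Slc25a38 (a mitochondrial glycine carrier) at 1.70 on the log2 scale. Between WT LT-HSC and WT MEP 8 of 12 were called higher, among them Cpox at 3.46 and Slc25a38 at 3.28. In the red cell membrane list 6 of 19 were higher and 1 lower in WT MEP than in WT LT-HSC, in the list of late erythroid enzymes 5 of 12 were higher, and in that of erythropoietin signalling 5 of 10 were lower, where 3.79% of all genes were called higher and 5.9% lower. Among 12 erythroid transcription factors 1 rose, Klf1, by 9.38 on the log2 scale.

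Likeness was measured as Pearson's r of log2 CPM over the 46 libraries among 8876 genes with a mean of at least 10 CPM, and the libraries share their populations. The globin genes were most like their own copies, with r = 0.957 for Hba-a1 and Hba-a2 and 0.952 for Hbb-bs and Hbb-bt, whereas Hba-a1 and Hbb-bs had r = 0.651. After its copy, Hba-a1 was most like Eef1g (0.833) and Phf10 (0.831), and Hbb-bt was most like Smim6 (0.879) and Map7 (0.874). Car1 was most like Ermap (0.950), Cldn13 (0.941) and Rhd (0.937), and Ermap was most like Cldn13 and Slc38a5 (both 0.966). Car2 was most like Xrcc5 (0.913) and Ciao2b (0.912), and Epor was most like Clca3a1 (0.871), Smim1 (0.816) and Aqp1 (0.815).

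Tet2-/- CMP had more RNA of the carbonic anhydrases, Epor and Ermap than WT CMP. Car1 measured 2529, 3598, 2970 and 5286 CPM in Tet2-/- CMP against the 351 to 1331 CPM of WT CMP. Car2 measured 1068, 2034, 1600 and 1880 CPM against 869, 640, 416 and 592 CPM. Neither gene overlapped between the genotypes. Epor was 28.6, 48.8, 48.9 and 37.0 CPM in Tet2-/- CMP, and Ermap was 53.1, 109, 66.5 and 101 CPM, again with every Tet2-/- library above every WT library. The fold differences were 4.09 for Car1 (log2 2.03, SE 0.38, edgeR adjusted p = 0.0111), 2.60 for Car2 (1.38, SE 0.25, 0.00948), 2.04 for Epor (1.03, SE 0.22, 0.0222) and 4.39 for Ermap (2.13, SE 0.32, 0.00342). So 4 of the 8 members tested were called higher and 0 lower, where 0.654% of all 16047 genes were called higher and 6.77% were higher without overlap. In the exact two-sided permutation test each of the 4 genes had p = 0.0286, the smallest that 4 against 4 libraries allow. Car1, Car2 and Ermap kept their calls in 8 of 8 fits that left out a library, and Epor lost its call without Tet2-/- replicate 3 or 4 or WT replicate 3, 4 or 5 (adjusted p up to 0.0669). With all 46 libraries in one fit only Car2 was called.

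The globin genes of CMP did not pass the test. Hba-a1 had a log2 difference of 0.76 (SE 0.74, adjusted p = 0.661), Hba-a2 of 0.59, Hbb-bs of -0.40 and Hbb-bt of -0.05, and the groups overlapped for each. The WT CMP libraries spread widely, from 1.88 to 57.9 CPM of Hba-a1, while the Tet2-/- libraries lay between 35.3 and 44.7 CPM. The median log2 difference of the 8 members was 0.89, against 0.026 over all genes tested.

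In the companion lists, few genes of CMP passed the test. Over all genes tested in CMP, 0.654% were called higher and 3.92% lower. The red cell membrane list had 2 of 19 called higher: Rhd, which carries the RhD-type blood group protein, rose from 8.75 to 56.1 CPM in WT to 112 to 178 CPM in Tet2-/- (log2 2.43, SE 0.48, adjusted p = 0.0156), and Rhag, its partner in the membrane, rose by 2.16 (SE 0.52, adjusted p = 0.0385). Cpox was the gene of 11 called in haem synthesis (1.63), and Blvrb (biliverdin reductase B) the gene of 11 called among late erythroid enzymes (1.31). None of 10 genes of erythropoietin signalling was called. Among 12 erythroid transcription factors 0 rose and 2 fell: Klf1 measured 48.1, 44.9, 26.1 and 71.5 CPM in WT CMP and 18.9, 19.3, 15.6 and 13.7 CPM in Tet2-/- CMP (-1.51, SE 0.28, adjusted p = 0.0113), and Gata2, a factor of stem and early progenitor cells, changed by -2.86 (SE 0.51, adjusted p = 0.00944).

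Markers of other cells were measured beside these differences, where 0.654% of all genes were called higher and 3.92% lower. The summed mast cell and basophil markers were 147 to 190 CPM in WT CMP and 258 to 538 CPM in Tet2-/- CMP without overlap. In that list 1 of 5 genes tested was called, Cpa3 (1.44), and Prss34, a basophil protease, was at 0 in all WT CMP libraries. Summed megakaryocyte markers were 558 to 852 CPM against 528 to 1413 CPM, with 1 of 7 called lower (Gp1bb). Summed neutrophil and GMP markers were 3702 to 5214 against 3444 to 3765 CPM, and HSC markers 121 to 159 against 108 to 133 CPM. Summed B cell markers were 163 to 237 CPM in WT CMP and 102 to 131 CPM in Tet2-/- CMP without overlap, with 1 of 3 genes tested called lower. Their part in the rise of Car1, Car2, Epor and Ermap was not tested.

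**Figure D3:**
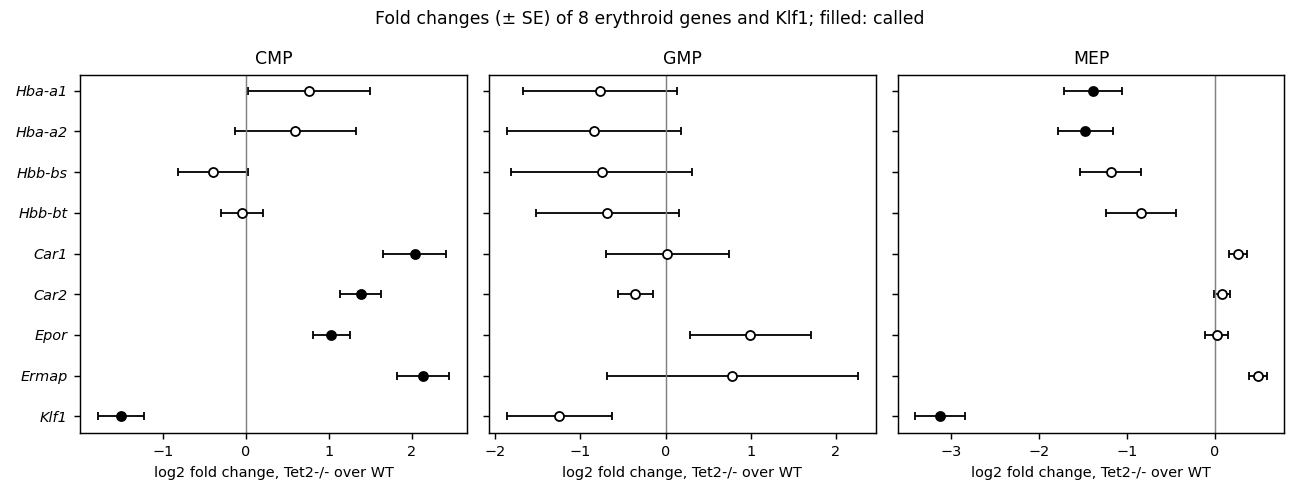
Log2 fold change (Tet2-/- against WT, edgeR) with its SE for 8 members and Klf1 in CMP, GMP and MEP, filled where called. Car1, Car2, Epor and Ermap are called higher in CMP (2.03, 1.38, 1.03 and 2.13), Hba-a1 and Hba-a2 are called lower in MEP (-1.38 and -1.47), and Klf1 is called lower in both.

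The α-globin genes were lower in Tet2-/- MEP than in WT MEP: Hba-a1 lay between 43.1 and 59.1 CPM against 82.8 to 250 CPM in WT, and Hba-a2 between 17.3 and 24.7 CPM against 39.7 to 104 CPM. Neither gene overlapped between the genotypes. Hba-a1 was 2.61-fold lower (log2 -1.38, SE 0.33, edgeR adjusted p = 0.0398) and Hba-a2 2.77-fold lower (-1.47, SE 0.31, adjusted p = 0.0232). The exact permutation p was 0.0286 for both, the smallest possible. These were 2 of 8 members tested, where 4.21% of all 14934 genes were called lower and 8.44% were lower without overlap. Summed as 1 gene, the α-globin pair was called lower too (-1.41, SE 0.32, adjusted p = 0.0318).

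The α-globin calls rested on few libraries. Hba-a1 was called in 2 of the 8 fits that left out a library, with adjusted p from 0.0200 to 0.122, and without WT replicate 4 its log2 difference was -0.91. It kept its call only without WT replicate 2 or WT replicate 5. Hba-a2 was called in 6 of 8 and lost its call without Tet2-/- replicate 3 (adjusted p = 0.0788) or Tet2-/- replicate 4 (0.0742). With no low-count filter Hba-a1 was not called (adjusted p = 0.0675), and with all 46 libraries in one fit neither was called.

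The β-globin genes pointed the same way without passing the test. Hbb-bs measured 9.99, 13.8, 6.59 and 8.62 CPM in Tet2-/- MEP, all below the lowest WT library at 16.1 CPM (log2 -1.18, SE 0.34, adjusted p = 0.0953, exact permutation p = 0.0286). Hbb-bt overlapped between the genotypes (-0.84, SE 0.40, adjusted p = 0.348, exact permutation p = 0.143). The summed pair had a log2 difference of -1.0 (SE 0.35, adjusted p = 0.18). DESeq2 called Hbb-bs (-1.19, adjusted p = 0.0143) beside both α-globin genes.

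The enzyme and surface genes of MEP differed little. Car1 was 13488, 16382, 14240 and 18451 CPM in Tet2-/- MEP (log2 0.27, SE 0.10, adjusted p = 0.228), and Car2 was 4215, 4806, 5663 and 4999 CPM (0.09, adjusted p = 0.765). Both overlapped with WT. Epor was 104, 103, 98.6 and 112 CPM, inside the WT range (0.02, adjusted p = 0.966). Ermap was 265, 260, 305 and 311 CPM, above all WT libraries as 4.65% of all genes were, with a 1.41-fold difference that passed the adjusted p (0.0225) and not the 2-fold minimum.

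Among the companions, Klf1 and Fech fell in MEP, where 4.21% of all genes were called lower. Klf1 measured 240, 239, 402 and 346 CPM in WT MEP and 48.6, 25.3, 25.2 and 41.5 CPM in Tet2-/- MEP, 8.73-fold lower (log2 -3.13, SE 0.28, adjusted p = 0.000203). It was the only one of 12 erythroid transcription factors called. Fech, the last enzyme of haem synthesis, was 90.9, 136, 134 and 113 CPM in WT and 61.5, 36.5, 42.4 and 51.0 CPM in Tet2-/- (-1.31, SE 0.19, adjusted p = 0.00323) and was the only one of 12 haem genes called. No gene was called of 19 for the red cell membrane, of 9 for erythropoietin signalling or of 11 late erythroid enzymes. Summed red cell membrane genes were 2210 to 2873 CPM in WT MEP and 2226 to 2615 CPM in Tet2-/- MEP. Summed megakaryocyte markers were 22.2 to 191 against 23.3 to 92.7 CPM, with 1 of 7 called lower (Gp1bb), and macrophage markers were 1.54 to 2.18 against 1.68 to 5.43 CPM, with Adgre1, C1qa, C1qb and C1qc at 0 in WT. Their part in the lower α-globin was not tested.

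Whether the genotype effect differed between MEP and CMP was tested in the libraries of these populations, a test chosen after the values were seen, in which the WT and Tet2-/- libraries of both populations enter. By edgeR 0 of the 8 members were called and 0.00569% of all genes were. Their MEP effect minus CMP effect was -1.76 for Car1 (SE 0.42, adjusted p = 0.321), -1.29 for Car2 (0.297), -1.01 for Epor (0.357), -1.64 for Ermap (0.239) and -2.14 for Hba-a1 (0.623). At an unadjusted p under 0.05, 6 members passed, those 5 and Hba-a2, and 7.64% of all genes did. DESeq2 called 4 of them, Car1 (adjusted p = 0.00654), Car2 (0.00331), Epor (0.0172) and Ermap (0.000762), and edgeR called 2 without WT CMP replicate 2. Set against the mean effect of the other 5 populations, the MEP effect had no member called by edgeR or by DESeq2, 0 members had an unadjusted p under 0.05 (5.31% of all genes did), with Ermap lowest at 0.226, and 0.514% of all genes were called.

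In the other populations edgeR called 0 members. In LT-HSC (0.0245% of all genes called) 2 members had an unadjusted p under 0.05, as did 5.16% of all genes. Car1 had a log2 difference of 5.06 (adjusted p = 0.841) that became 1.05 without Tet2-/- replicate 2. Hbb-bt in LT-HSC was 25.2 to 51.2 CPM in Tet2-/- and 31.8 to 102 CPM in WT (-0.99, adjusted p = 0.910), which overlapped. In ST-HSC 0.0185% of all genes were called, in GMP 4.37% and in CLP 0.00766%. In these populations 0 members had an unadjusted p under 0.05, where 6.13%, 17.3% and 3.65% of all genes did. DESeq2 called 0 members in LT-HSC, ST-HSC, GMP and CLP. The means of Car2 and Epor were lower in GMP than in any other population, in both genotypes. Car2 was at 24.2 to 44.6 CPM in WT GMP and 23.5 to 34.0 CPM in Tet2-/- GMP. Of the companions in GMP, Pim1 (-2.90), Sh2b3 (-1.22), Gata2 (-1.13) and Fech (-1.17) were called lower, where 4.06% of all genes were. Their lists hold 10 genes of erythropoietin signalling (Pim1 and Sh2b3), 12 erythroid transcription factors (Gata2) and 12 haem genes (Fech).

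The second set of LT-HSC libraries repeated the excess of β-globin over α-globin, in 9 of 9 libraries. Before its values, the label check: Tmem173, the Sting gene, had 1788, 1168 and 0 counts in the libraries labelled WT, 6333, 0 and 3835 in the Sting-/- group, and 0, 14 and 1128 under the label Tet2;Sting DKO. These counts go against the labels, since 1 library labelled WT was at 0 and 2 labelled Sting-/- had the most, and a count of the whole gene does not separate intact from deleted transcripts. Tet2 was at 0 in 2 of the libraries labelled WT and had 56 to 1433 counts in those labelled Tet2;Sting DKO.

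Hbb-bt measured 36.6, 6.96 and 52.7 CPM in the libraries labelled WT, 44.9, 55.4 and 70.2 CPM in the Sting-/- group, and 95.2, 39.4 and 61.1 CPM under the label Tet2;Sting DKO. The 3 groups overlapped. Mean Hbb-bs in the same order was 3.45, 1.40 and 0.0491 CPM, so most β-globin counts were those of Hbb-bt. In LT-HSC of the first set, Hbb-bs made up 28.6% (WT) and 30.9% (Tet2-/-) of the counts of the pair. Summed over each pair, the means were 7.84, 0.935 and 0.797 CPM of α-globin and 35.6, 58.2 and 65.3 CPM of β-globin. Hba-a1 had 156, 220 and 293 counts in the libraries labelled WT (3.95, 6.43 and 10.3 CPM), 0, 0 and 127 counts in the Sting-/- group, and 0, 5 and 0 counts under the label Tet2;Sting DKO, so the WT libraries lay above all others. Of all genes, 7.34% were lower without overlap in Sting-/- than in WT, and 13.9% in Tet2;Sting DKO than in WT. Car2 was 2369, 3898 and 4351 CPM, 4794, 4190 and 2744 CPM, and 3560, 3188 and 3383 CPM in the 3 groups, which overlapped. Epor was at 772, 0 and 0 counts, 0, 1296 and 1854 counts, and 0 counts in all 3 libraries, with libraries of one group split between 0 and high counts. Car1 had at most 2 counts, and Ermap and Slc4a1 were at 0 in all 9 libraries.

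edgeR called 0 members in the second set, where 0% of all genes were called for Sting-/- against WT, 0.657% for Tet2;Sting DKO against WT and 0.159% for Tet2;Sting DKO against Sting-/-. The first pair of comparisons share the WT libraries. At an unadjusted p under 0.05, 1 member passed for Tet2;Sting DKO against WT, Hba-a1 (adjusted p = 0.245), where 13.2% of all genes passed. In the other comparisons 0 members passed, where 4.71% (Sting-/- against WT) and 8.3% (Tet2;Sting DKO against Sting-/-) of all genes did. DESeq2 called Hba-a1 in that comparison and Epor for Tet2;Sting DKO against Sting-/-. With 3 against 3 libraries the exact permutation test cannot go below p = 0.10.

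**Figure D4:**
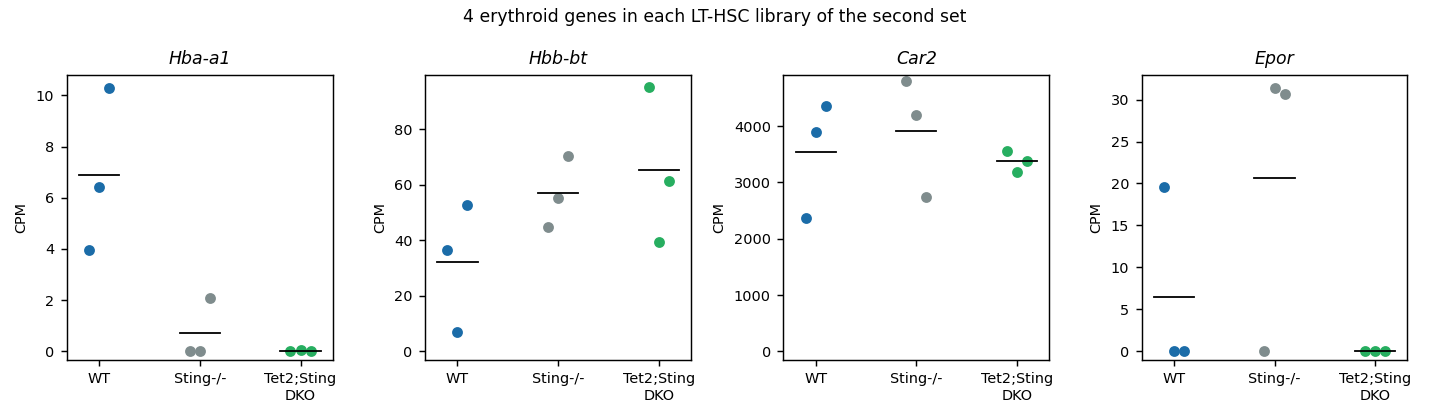
CPM of Hba-a1, Hbb-bt, Car2 and Epor in the 9 LT-HSC libraries of the second set, by labelled genotype, with a line at the mean. Hba-a1 is at 3.95 to 10.3 CPM in the libraries labelled WT and at most 2.1 CPM in the others, while Hbb-bt and Car2 overlap between the groups.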

How the data were processed

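The authors sorted cells, sequenced full-length cDNA, trimmed and aligned the reads and deposited raw counts per gene, which are not normalized. The submitters' processing notes name Trim Galore 0.6.7, HISAT2 7.5.0, DESeq2 and the builds mm10 and mm9, while the study's methods give earlier tool versions and mm10; the counting program, its annotation and its use of strand are not given in the sources used here. The tables were analysed separately, and 2 lines of the second without counts were not used. All library columns were mapped to samples by title.

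Counts were scaled by TMM and tested with edgeR 4.0.16 in R 4.3.3 (limma 3.58.1): filterByExpr, quasi-likelihood fit, prior count 2, Benjamini-Hochberg adjustment over all genes, and a call at adjusted p under 0.05 and at least 2-fold. Genotypes were fitted within each population from the groups compared, and populations in a 12-group model. For each member, log2 CPM was compared in an exact permutation test (two-sided). DESeq2 1.42.0, RLE scaling, no low-count filter, other sets of libraries, other thresholds, a replicate block, summed globin pairs and leaving out each library were alternatives; the summed pairs, the fit without CLP and the MEP against CMP test of effects were chosen after the values were seen. The steps were run on simulated counts with known changes and the same spread for every gene. In the 12-group case the simulated populations did not differ apart from those changes. These runs checked the code and do not show how it performs at the spread of these libraries. Plots and levels used Python 3.11.15, numpy 2.4.6, pandas 2.3.3, scipy 1.17.1 and matplotlib 3.10.9. Counting error is small at this depth, but amplification from few cells adds spread that counts do not show, and reads without molecular identifiers are not independent molecules.

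The members and lists were chosen with earlier results of these data known. In each companion list, at most the 3 called genes with the widest change were named. Libraries with the same number deviated together in Tet2-/- MEP and CMP (r = 0.168 to 0.219) and in Tet2-/- CMP and GMP (r = 0.104 to 0.248), in 4 of 4 pairs each, and the replicate block changed no member call there. In other steps r was over 0.1 in part of the pairs: 3 of 4 for WT CMP and GMP, and 3 of 4 for Tet2-/- MEP and LT-HSC. For WT MEP it was 2 of 4 with CMP and 1 of 3 with LT-HSC. Over all population steps, 2 member calls were lost with that block. Some genes that these rules would name are not reported here.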

Additional observations from a re-analysis of the deposited data

Results flagged for a closer look

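In groups of 4 libraries, the gap of a library to the nearest other was taken as a share of the group's range. It was above Dixon's critical value in 14 of 81 member and group pairs. The rate of about 1 in 20 for that value holds for normal values. The CPM were not log-transformed, many lay near 0 and the globin copies share reads, so 14 of 81 cannot be set against that rate. In 3 pairs all other libraries were at 0 (Slc4a1 in Tet2-/- GMP and Ermap in WT and Tet2-/- CLP). WT MEP replicate 4 had 104 CPM of Hba-a2 against 39.7 to 47.8 CPM in the other WT MEP libraries and 38.6 CPM of Hbb-bs against 16.1 to 17.4 CPM. Tet2-/- CMP replicate 5 had 44.7 CPM of Hba-a1 against 35.3 to 35.7 CPM. Tet2-/- LT-HSC replicate 2 had 304 CPM of Car1 against 1.35 to 7.68 CPM and 8.82 CPM of Ermap against at most 0.210 CPM. Tet2-/- GMP replicate 3 had 19.1 CPM of Car1 against 2.82 to 4.71 CPM and 0.966 CPM of Slc4a1, which was at 0 in the others. The other libraries of this kind were CLP. WT CLP replicate 4 had 2.82 CPM of Hba-a1, 6.76 CPM of Hba-a2 and 0.237 CPM of Ermap, and WT CLP replicate 5 had 7.35 CPM of Hbb-bt. Tet2-/- CLP replicate 4 had 9.18 CPM of Hbb-bt and 3.05 CPM of Ermap, and Tet2-/- CLP replicate 2 had 0 CPM of Epor against 4.40 to 5.05 CPM.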

How the results depend on the processing

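No called member changed its direction under any alternative run, and the cause of each change below was not tested. In CMP the 4 members called became 2 with the replicate block (Car1 and Ermap), 1 with all libraries in one fit (Car2) and 3 to 4 without single libraries. In MEP the 2 became 1 with no low-count filter (Hba-a2), 0 with the replicate block (adjusted p = 0.121 for Hba-a1 and 0.0777 for Hba-a2), 0 with all libraries in one fit, 1 with summed globin pairs, where the pair is 1 gene, and 0 to 2 without single libraries. Same-numbered libraries of the genotypes had no pair with r over 0.1. LT-HSC went from 0 to 1 (Car1) with unadjusted p at 2-fold or more. For WT MEP against CMP the 1 call became 4 in the fit of those groups, 2 without the CLP libraries and stayed at 1 without single libraries. For WT MEP against LT-HSC the 4 became 2 with RLE scaling, 7 in the fit of those groups, 7 without CLP and 2 to 4 without single libraries. WT CMP against GMP ranged from 1 to 4 without single libraries. In Tet2-/-, MEP against CMP went from 1 to 4 in the fit of those groups, MEP against LT-HSC ranged from 3 to 5, and CMP against GMP went from 4 to 7 in the fit of those groups and ranged from 3 to 4. In the second set, Tet2;Sting DKO against WT went from 0 to 1 with unadjusted p and to 1 with DESeq2, and against Sting-/- to 1 with DESeq2. The MEP effect minus the CMP effect went from 0 to 4 with DESeq2 and ranged from 0 to 2.

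Over all genes DESeq2 made more calls than edgeR (higher and lower): in LT-HSC 150 and 80 against 4 and 0, in ST-HSC 193 and 132 against 3 and 0, in CMP 320 and 914 against 105 and 629, in GMP 179 and 889 against 51 and 672, in MEP 117 and 932 against 22 and 629, and in CLP 276 and 165 against 1 and 0. It made 425 and 1068 against 4 and 111 for the MEP effect set against the other 5 populations, and 93 and 162 against 0 and 1 for that set against CMP. For the population steps it made 551 and 2156 against 169 and 922 (WT MEP and CMP), 1779 and 2515 against 847 and 1319 (WT MEP and LT-HSC), 679 and 784 against 253 and 187 (WT CMP and GMP), 359 and 1987 against 47 and 753, 1477 and 3422 against 1068 and 1845, and 754 and 1295 against 344 and 462 (the same steps in Tet2-/-). In the second set it made 86 and 324 against 0 and 0 (Sting-/- and WT), 293 and 1049 against 4 and 60 (Tet2;Sting DKO and WT), and 245 and 546 against 0 and 15 (Tet2;Sting DKO and Sting-/-).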
